A study of Mus musculus with 8 samples.

Results

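Microglia are the resident macrophages of the brain, and 9 genes typical of their resting, or homeostatic, state were followed here: Cx3cr1, P2ry12, P2ry13, Tmem119, Csf1r, Sall1, Gpr34, Siglech and Selplg. They were taken by symbol, as genes known to be expressed by resting microglia, from 55487 mouse gene identifiers. Expression was measured by RNA sequencing of the dorsomedial hypothalamus (DMH), whose sample names mark it as laser microdissected. In the 4 shPpp1r17 libraries a short hairpin RNA was directed at Ppp1r17, a gene that encodes a protein phosphatase inhibitor, and in the 4 shfLuc libraries a control hairpin was directed at firefly luciferase, a gene that mice lack. The sources used here do not give strain, sex, age or the way the hairpins were delivered, nor whether each library came from its own animal. The p-values therefore speak of variation among these 8 libraries, part of which may be technical.

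Resting microglia survey the tissue with motile processes, and their receptors read signals from neurons, from other glia and from damaged cells. The growth factor receptor Csf1r keeps them alive, the transcription factor Sall1 maintains their identity, and purine and chemokine receptors guide their processes. When microglia become activated, transcripts of this set are known to fall while those of phagocytosis, lipid handling and complement rise, so the set is commonly read beside genes of broader myeloid expression. The set is not exclusive to microglia: Cx3cr1 and Csf1r are also expressed by macrophages at the borders of the brain, Selplg by most leukocytes and Siglech by plasmacytoid dendritic cells.

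The libraries held 23070147 to 25749643 estimated reads in shfLuc and 25637389 to 33907984 in shPpp1r17. Levels are given as CPM, read counts scaled to a common library size. In the control libraries Ppp1r17 ranged from 147 to 171 CPM, and shPpp1r17 1 to 4 had 87.7, 2.07, 3.10 and 87.2 CPM. It was thus near 0 in shPpp1r17 2 and 3 and higher in shPpp1r17 1 and 4, though still below every shfLuc library, and its log2 fold change of -1.83 (SE 0.80) did not pass edgeR's quasi-likelihood test (adjusted p = 0.197). Of the 10 genes listed for the DMH 9 were tested, and 0 rose and 0 fell in edgeR (0 higher and 4 lower at an unadjusted p under 0.05, 1 lower with DESeq2 and 2 lower with limma voom). That list includes Ppp1r17 itself, and without it the summed level was 1811, 1448, 1516 and 1623 CPM in shfLuc 1 to 4 and 1378, 1116, 1130 and 1462 CPM in shPpp1r17 1 to 4, with overlap through shPpp1r17 4, and 3 of 8 genes were lower at an unadjusted p under 0.05. Among them galanin (Gal) had a log2 fold change of -0.31 (SE 0.09, adjusted p = 0.0659 in edgeR), the bombesin-like receptor gene Brs3 one of -1.18 (SE 0.39, adjusted p = 0.0910), and Hmx2, a homeobox transcription factor gene, one of -0.50 (adjusted p = 0.133).

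Transcripts of the homeostatic genes had higher mean CPM in shPpp1r17 than in shfLuc for each of the 9, and most differences lay within the spread between libraries. The lysophosphatidylserine receptor gene Gpr34 rose, and the other 8 genes did not pass the test. All 9 genes were detected in every library, with 131 to 1936 reads, and all passed the expression filter. In edgeR 1 was called higher and 0 lower at an adjusted p of 0.05, with 3 higher and 0 lower at an unadjusted p under 0.05, and DESeq2 and limma voom each called 1 higher and 0 lower. Of all 17339 genes tested, 3.39% were called higher, 2.66% lower and 6.06% in either direction, and 1 gene of 9 is too few to read a share against these. On log2(TPM + 1) with limma the split over all genes was 309 higher and 488 lower, against 588 and 462 in edgeR. The fitted log2 fold change was above 0 for all 9 genes, against 50.6% of all tested genes, and its median was 0.21 (quartiles 0.13 and 0.29), against 0.0043 over all tested genes. Without the shPpp1r17 libraries 2 and 3, a comparison added after seeing the data, 5 of the 9 were above 0, the median was 0.033 and 0 genes were called (2 at an unadjusted p under 0.05), where 0.144% of all tested genes were called higher. Without shfLuc 4, 6 of the 9 were above 0. In these bulk samples fewer cells of a type and less RNA per cell cannot be told apart, and likewise more cells and more RNA per cell.

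**Figure D1:**
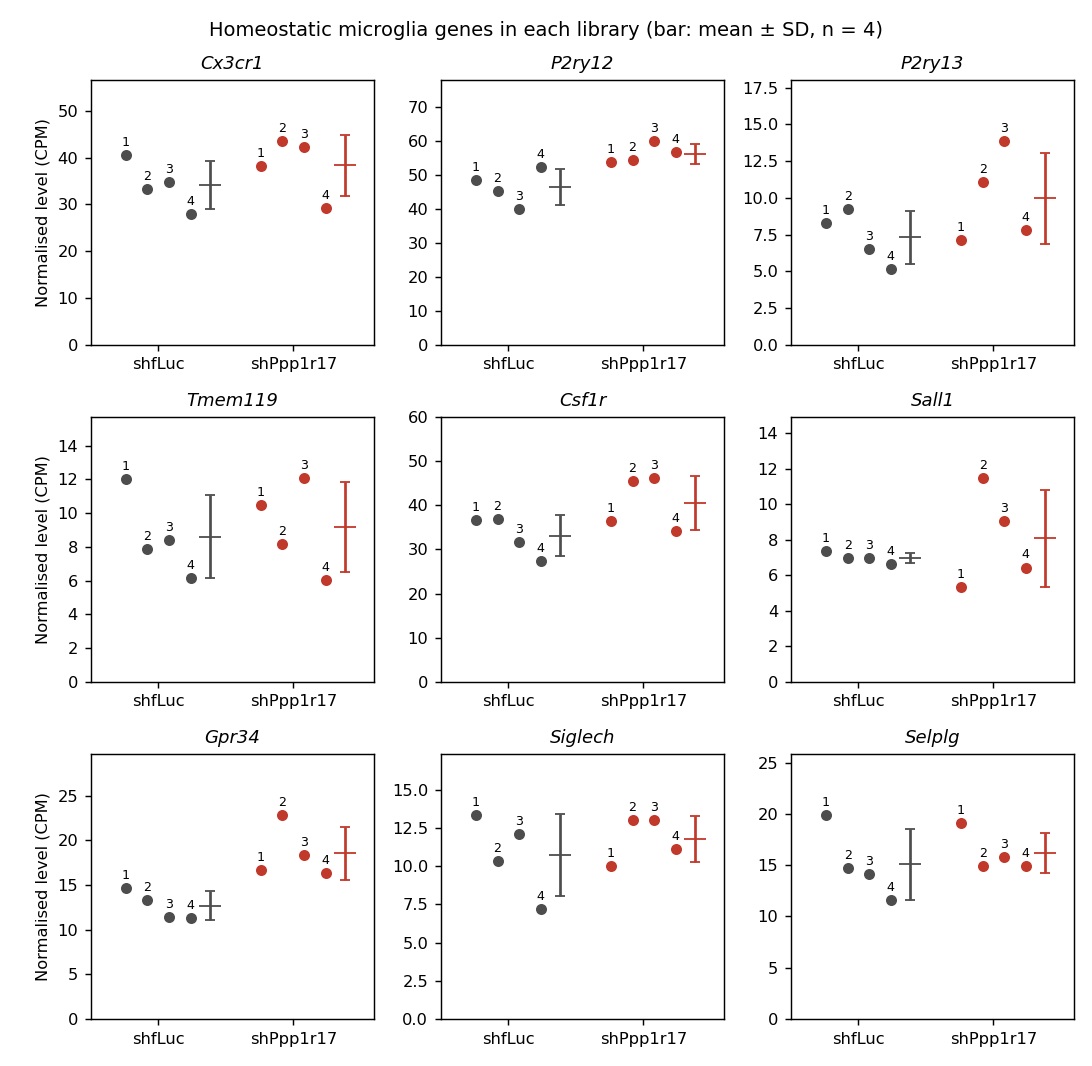
CPM of the 9 homeostatic microglia genes in each shfLuc and shPpp1r17 library (points), with the mean and SD of each group of 4, on a linear axis per gene that starts at 0. The groups do not overlap for Gpr34 and P2ry12, and they overlap for the other 7 genes.

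The purine and lipid receptors of the set were Gpr34, P2ry12 and P2ry13, all G protein-coupled. Gpr34 (ENSMUSG00000040229; chromosome X, 13632089 to 13640858 on the plus strand of GRCm38) had values of 14.7, 13.4, 11.5 and 11.3 CPM in shfLuc 1 to 4 and at 16.6, 22.8, 18.4 and 16.4 CPM in shPpp1r17 1 to 4. Every shPpp1r17 library lay above every shfLuc library, with the highest value in shPpp1r17 2. The means were 12.7 ± 1.62 and 18.6 ± 2.98 CPM (SD, n = 4), a ratio of 1.46. Its log2 fold change of 0.55 (SE 0.14, 95% interval 0.25 to 0.84) passed edgeR's quasi-likelihood test (adjusted p = 0.0358). That call was lost without shfLuc 2 (0.57, adjusted p = 0.0873), shfLuc 3 (0.50, 0.115), shfLuc 4 (0.49, 0.104), shPpp1r17 2 (0.43, 0.104) or shPpp1r17 3 (0.54, 0.0974), and without both of the last (0.37, 0.311), while the value stayed between 0.43 and 0.62 with any 1 library left out. It was lost as well on log2(TPM + 1) with limma (0.42, adjusted p = 0.0941) and with effective length as an offset (0.55, 0.0535).

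P2ry12 (ENSMUSG00000036353; chromosome 3, 59216272 to 59262871 on the minus strand) encodes the ADP receptor with which resting microglia steer their processes to sites of injury. It stood at 48.4, 45.3, 39.9 and 52.4 CPM in shfLuc 1 to 4 and at 53.8, 54.3, 60.1 and 56.9 CPM in shPpp1r17 1 to 4. The lowest shPpp1r17 library was above the highest shfLuc library, though by a small margin. P2ry12 and Gpr34 were the 2 genes of the set whose groups did not overlap, both higher in shPpp1r17, where 13.9% of all tested genes did not overlap, 7.12% higher and 6.74% lower. The means of P2ry12 were 46.5 ± 5.28 and 56.3 ± 2.88 CPM (SD, n = 4), and its log2 fold change of 0.27 (SE 0.09, 95% interval 0.08 to 0.47) did not pass edgeR's test over all genes (unadjusted p = 0.00931, adjusted p = 0.0909). P2ry13 (ENSMUSG00000036362; chromosome 3, 59207892 to 59210882 on the minus strand), a second ADP receptor gene, lies 5.39 kb from P2ry12. It stood at 8.30, 9.25, 6.54 and 5.15 CPM in shfLuc 1 to 4 and at 7.15, 11.1, 13.9 and 7.82 CPM in shPpp1r17 1 to 4. The shPpp1r17 libraries 2 and 3 were the highest and libraries 1 and 4 lay within the shfLuc range. Its log2 fold change was 0.45 (SE 0.23, 95% interval -0.06 to 0.96, adjusted p = 0.280 in edgeR), and without the shPpp1r17 libraries 2 and 3 it was 0.033.

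The start regions of the neighbouring ADP receptor genes are shown because r between these genes was low within groups. It was 0.0241 with group means removed (described with the other pairs below) and 0.419 over the 8 libraries without that step. So few libraries cannot show that these genes vary independently. The start region of Siglech is shown because it is the other window of the set with a match to the core motif of PU.1. PU.1 is the macrophage transcription factor encoded by Spi1. Each sequence runs from 250 bases before to 50 bases after the start, from RefSeq on GRCm38.p6, read 5′ to 3′ on the strand of the gene, with matches to GAGGAA on either strand in capitals. Windows were found for 5 of the 9 genes (Cx3cr1, P2ry12, P2ry13, Sall1 and Siglech, 7 windows in all), and 2 of the 7 windows held the motif, against 28.3% of all 32851 windows of that length. The first window is at chr3:59262936-59263235 on the minus strand, the second at chr3:59210833-59211132 on the minus strand and the third at chr7:55767934-55768233 on the plus strand. The P2ry12 window lies wholly upstream of the span given for that gene above, which comes from GENCODE, so the annotations place its start differently.
P2ry12: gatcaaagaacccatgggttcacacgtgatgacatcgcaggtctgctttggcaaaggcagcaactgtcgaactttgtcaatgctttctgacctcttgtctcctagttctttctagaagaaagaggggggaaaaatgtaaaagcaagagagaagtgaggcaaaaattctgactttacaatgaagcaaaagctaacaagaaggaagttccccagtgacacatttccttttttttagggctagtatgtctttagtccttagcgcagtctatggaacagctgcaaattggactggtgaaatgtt
P2ry13: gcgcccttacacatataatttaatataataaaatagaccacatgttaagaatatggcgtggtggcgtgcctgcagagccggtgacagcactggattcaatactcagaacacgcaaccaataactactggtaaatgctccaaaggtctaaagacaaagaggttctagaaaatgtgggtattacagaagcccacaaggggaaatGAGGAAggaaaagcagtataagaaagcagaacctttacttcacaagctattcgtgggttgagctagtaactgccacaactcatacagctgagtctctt
Siglech: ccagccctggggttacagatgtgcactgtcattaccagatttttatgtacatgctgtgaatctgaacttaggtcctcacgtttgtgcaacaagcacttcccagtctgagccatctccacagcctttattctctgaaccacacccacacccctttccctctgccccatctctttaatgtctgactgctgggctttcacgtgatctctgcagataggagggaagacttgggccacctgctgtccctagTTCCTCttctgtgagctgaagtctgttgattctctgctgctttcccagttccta
The P2ry13 match starts 48 bases before the start site and lies on the gene's own strand. The Siglech match starts 4 bases before the start site and reads TTCCTC, the motif on the other strand. The P2ry12 and Cx3cr1 windows hold no match, which says only that these letters are not in these windows. Tmem119, Csf1r, Gpr34 and Selplg are named without a window.

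The receptors for neuronal and growth signals were Cx3cr1 and Csf1r. Cx3cr1 (ENSMUSG00000052336; chromosome 9, 119901616 to 120069879 on the minus strand) encodes the receptor of fractalkine, a chemokine that neurons display. It stood at 40.5, 33.3, 34.9 and 27.9 CPM in shfLuc 1 to 4 and at 38.2, 43.6, 42.3 and 29.3 CPM in shPpp1r17 1 to 4. The groups overlapped, with shPpp1r17 2 and 3 above every shfLuc library and shPpp1r17 4 below 3 of them. The means were 34.1 ± 5.19 and 38.4 ± 6.48 CPM (SD, n = 4), with a log2 fold change of 0.17 (95% interval -0.12 to 0.46, adjusted p = 0.505 in edgeR), and -0.02 without the shPpp1r17 libraries 2 and 3. Csf1r (ENSMUSG00000024621; chromosome 18, 61100598 to 61132149 on the plus strand) encodes the receptor tyrosine kinase for CSF1 and IL-34. It stood at 36.6, 37.0, 31.6 and 27.3 CPM in shfLuc 1 to 4 and at 36.5, 45.5, 46.2 and 34.2 CPM in shPpp1r17 1 to 4. Again shPpp1r17 2 and 3 were above every shfLuc library and shPpp1r17 1 and 4 lay within their range. The means were 33.1 ± 4.58 and 40.6 ± 6.13 CPM (SD, n = 4), with a log2 fold change of 0.29 (SE 0.12, 95% interval 0.03 to 0.56, adjusted p = 0.180 in edgeR), and 0.09 without those libraries.

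A list of genes for ligands and partners of the whole set, not of these receptors alone, was read beside it. Of 14 listed genes 10 were tested, and 0 rose and 0 fell in edgeR (2 higher and 0 lower at an unadjusted p under 0.05, 0 and 0 with DESeq2, 0 and 0 with limma voom), with a median log2 fold change of 0.02. The fractalkine gene Cx3cl1 stood at 44.3 ± 3.96 CPM in shfLuc and 43.1 ± 4.15 CPM in shPpp1r17 (SD, n = 4). For the Csf1r ligands, Csf1 stood at 13.6 ± 1.497 and 14.8 ± 0.906 CPM and Il34 at 19.0 ± 2.79 and 16.3 ± 2.74 CPM, with log2 fold changes of 0.12 and -0.22 (adjusted p = 0.603 and 0.416 in edgeR). The TGF-beta receptor gene Tgfbr2, whose signal maintains the homeostatic program, had a log2 fold change of 0.56 (adjusted p = 0.120 in edgeR), Tgfb2, a ligand gene of that pathway, one of 0.12 (adjusted p = 0.551), and the ecto-nucleotidase gene Nt5e one of 0.88 (adjusted p = 0.198).

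The surface proteins used to mark microglia were Tmem119, Siglech and Selplg. Tmem119 (ENSMUSG00000054675; chromosome 5, 113793729 to 113800516 on the minus strand), a transmembrane protein gene, stood at 12.01, 7.88, 8.42 and 6.14 CPM in shfLuc 1 to 4 and at 10.5, 8.16, 12.1 and 6.03 CPM in shPpp1r17 1 to 4. The groups covered nearly the same range, with library 4 the lowest of each. Its log2 fold change was 0.09 (SE 0.24, 95% interval -0.42 to 0.60, adjusted p = 0.861 in edgeR), an interval that spans decreases and increases. Siglech (ENSMUSG00000051504; chromosome 7, 55768178 to 55778925 on the plus strand), a gene for a sialic acid-binding lectin, stood at 13.4, 10.4, 12.1 and 7.20 CPM in shfLuc 1 to 4 and at 10.001, 13.04, 13.002 and 11.1 CPM in shPpp1r17 1 to 4. Its shPpp1r17 libraries all fell inside the shfLuc range, which its lowest library, shfLuc 4, widened. The log2 fold change was 0.13 (95% interval -0.26 to 0.52, adjusted p = 0.715 in edgeR), and -0.02 without shfLuc 4. Selplg (ENSMUSG00000048163; chromosome 5, 113818536 to 113832644 on the minus strand), which encodes a glycoprotein that binds P-selectin, lies 18.0 kb from Tmem119. It stood at 19.9, 14.7, 14.1 and 11.6 CPM in shfLuc 1 to 4 and at 19.1, 14.9, 15.8 and 14.9 CPM in shPpp1r17 1 to 4, so that library 1 was the highest of each group and the groups overlapped. The log2 fold change was 0.10 (95% interval -0.24 to 0.44, adjusted p = 0.756 in edgeR).

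Sall1 (ENSMUSG00000031665; chromosome 8, 89027235 to 89044162 on the minus strand) is the transcription factor gene of the set. It stood at 7.35, 6.95, 6.97 and 6.65 CPM in shfLuc 1 to 4 and at 5.35, 11.5, 9.06 and 6.44 CPM in shPpp1r17 1 to 4. The shPpp1r17 libraries fell on both sides of the shfLuc values: 2 and 3 lay above every shfLuc library and 1 and 4 below every one. The coefficient of variation was 4.11% in shfLuc, where counting error is 7.76%, and 34.0% in shPpp1r17, where it is 6.95%. The log2 fold change of 0.21 (SE 0.22, adjusted p = 0.615 in edgeR) is therefore the mean of opposite deviations, and it was -0.24 without the shPpp1r17 libraries 2 and 3. Of 11 other transcription factor genes of microglia 0 rose and 0 fell in edgeR (3 higher and 0 lower at an unadjusted p under 0.05, 1 higher with DESeq2, 0 with limma voom), with a median log2 fold change of 0.29. Maf, a factor of tissue macrophages, had the smallest p of them, at 6.32 ± 0.535 and 9.62 ± 1.84 CPM (SD, n = 4; log2 fold change 0.60, adjusted p = 0.0531 in edgeR). Mef2a and Mef2c, which are also abundant in neurons, had log2 fold changes of 0.29 and 0.24, and Irf8, a myeloid lineage factor, 0.81 (adjusted p = 0.138, 0.207 and 0.223 in edgeR). Spi1, which encodes PU.1, was near its detection limit, at 0.219 ± 0.139 and 0.365 ± 0.188 CPM.

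Compared per length, in TPM (the deposited unit that scales reads by transcript length and library), P2ry12 was the most abundant of the set and Sall1 the least in both groups. In shfLuc the order of mean levels was P2ry12 (43.5 ± 2.68 TPM, SD, n = 4), Cx3cr1 (14.0 ± 1.96), Selplg (13.5 ± 2.63), Csf1r (10.5 ± 1.78), Gpr34 (9.57 ± 1.22), Siglech (9.39 ± 2.91), Tmem119 (6.20 ± 1.67), P2ry13 (4.01 ± 0.992) and Sall1 (1.84 ± 0.0603). The values of neighbours in this order overlapped, except that P2ry12 lay above Cx3cr1 and P2ry13 above Sall1 without overlap. In shPpp1r17 the order was the same but for Gpr34 (13.2 ± 2.29 TPM), which stood ahead of Csf1r (12.01 ± 1.86) with overlapping values.

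A list of 17 genes broadly expressed in microglia and other myeloid cells, called pan-myeloid here, had larger fitted fold changes than most of the homeostatic set. In edgeR 8 rose and 0 fell (10 and 0 with DESeq2, 7 and 0 with limma voom, 4 and 0 on log2(TPM + 1)), and their median log2 fold change was 0.88 (range 0.30 to 1.13). Among them were the complement genes C1qa (15.3 ± 3.15 to 30.1 ± 6.47 CPM, SD, n = 4; log2 fold change 0.97, adjusted p = 0.0114) and C1qb (72.2 ± 15.9 to 144 ± 40.6 CPM; 0.998, adjusted p = 0.0141), the tetraspanin gene Cd53 (0.88, adjusted p = 0.0181) and Fcer1g, the shared chain of Fc receptors (0.97, adjusted p = 0.0203). The fitted log2 fold changes of 7 of the 9 homeostatic genes were below that of every pan-myeloid gene. The margin was small for Csf1r (0.293, against 0.2995 for the lowest pan-myeloid gene). Without shPpp1r17 2 and 3, 15 of the 17 pan-myeloid genes and 5 of the 9 homeostatic genes were above 0. The count of 7 therefore did not hold in that fit. In the fit of all libraries the 95% interval ended below the pan-myeloid median for 8 of the 9, all but P2ry13. The list is not neutral to activation, since it holds the complement genes C1qa, C1qb and C1qc, all 3 among its 8 calls. Without them 5 of 14 rose and 0 fell, with a median of 0.84. Whether these 14 genes are neutral to activation was not tested, so the reduced list is not a measure of microglial amount either. Whether the list medians differ was not tested, because the members were chosen with results known.

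**Figure D2:**
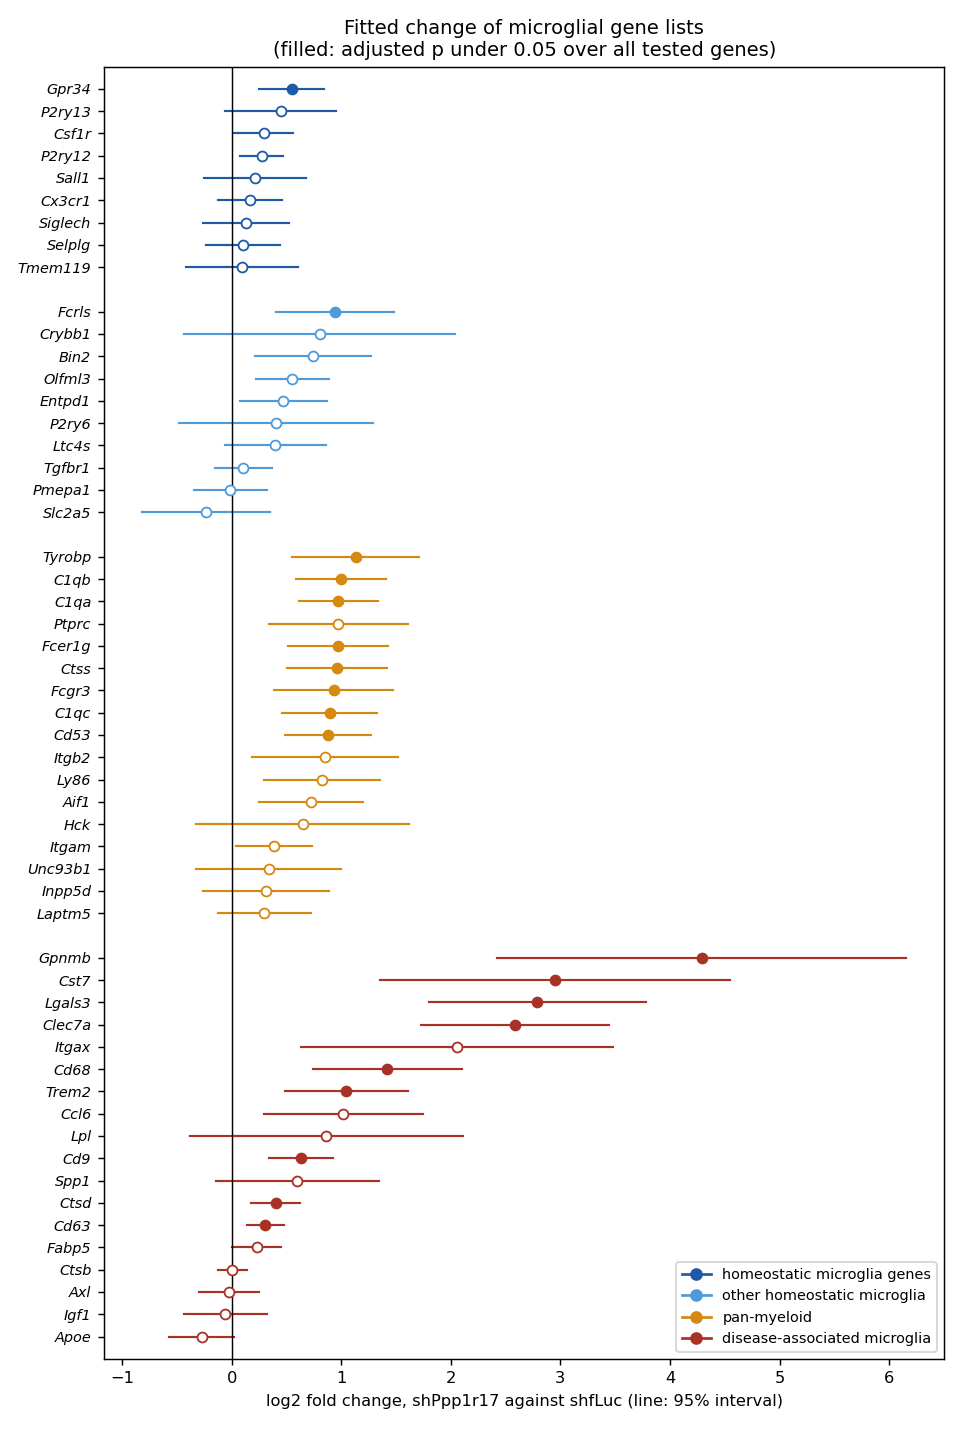
Fitted log2 fold change (shPpp1r17 against shfLuc) of each homeostatic microglia gene and of 10 of the 11 other homeostatic genes and the pan-myeloid and disease-associated genes, with 95% intervals as lines and filled points for an adjusted p under 0.05. Gpr34 (0.55) is the only one of the 9 past the threshold, and most of the 9 sit below the pan-myeloid genes, whose range is 0.30 to 1.13.

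Of 11 other genes of resting microglia 2 rose and 0 fell in edgeR (4 and 0 with DESeq2, 1 and 0 with limma voom, 1 and 0 on log2(TPM + 1)), and their median log2 fold change of 0.47 lay between those of the 9 genes and of the pan-myeloid genes. The fold change was above 0 for 9 of the 11, and the lowest was -0.23. Fcrls, an Fc receptor-like gene, was among those that rose (10.9 ± 1.82 against 21.0 ± 8.28 CPM, SD, n = 4, log2 fold change 0.94, adjusted p = 0.0434). It stood at 10.5, 25.8, 29.1 and 18.6 CPM in shPpp1r17 1 to 4. The value of shPpp1r17 1 lay inside the shfLuc range of 9.03 to 13.2 CPM, and libraries 2 and 3 were the highest. Olfml3 (0.55) and Bin2 (0.74) did not pass (adjusted p = 0.0531 and 0.0926 in edgeR).

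Genes of the activated, disease-associated state formed a further list. Of 18 listed 9 rose and 0 fell in edgeR (11 and 0 with DESeq2, 5 and 0 with limma voom, 2 and 0 on log2(TPM + 1)), with a median log2 fold change of 0.75 (range -0.27 to 4.29). The pattern receptor gene Clec7a had means of 1.12 ± 0.406 and 6.77 ± 3.48 CPM (SD, n = 4), a rise of 2.58 on the log2 scale (adjusted p = 0.00998) and the galectin gene Lgals3 had 0.747 ± 0.362 and 5.19 ± 2.80 CPM (2.79, adjusted p = 0.0107). The lysosomal glycoprotein gene Gpnmb stood at 4.06, 56.8, 30.7 and 2.82 CPM in shPpp1r17 1 to 4 against 0.669 to 2.18 CPM in shfLuc, so that its log2 fold change of 4.29 rests mostly on libraries 2 and 3. The tetraspanin gene Cd9 rose by 0.63 on the log2 scale (adjusted p = 0.0200 in edgeR). It stood at 100, 154, 121 and 96.8 CPM in shPpp1r17 1 to 4, highest in libraries 2 and 3, where the oligodendrocyte genes described below were also highest. Which cells its transcripts came from was not tested. Apoe, the lipoprotein gene that astrocytes also express, was among the 9 that did not pass (-0.27, adjusted p = 0.261). Of 14 inflammatory genes 9 were tested, and 3 rose and 0 fell in edgeR (3 and 0 with DESeq2, 2 and 0 with limma voom, 2 and 0 on log2(TPM + 1)): the chemokine genes Ccl4 (0.0638 ± 0.103 to 1.68 ± 0.858 CPM, with 0 reads in shfLuc 2 and 3) and Ccl12 (3.21 ± 1.52 to 11.4 ± 4.02 CPM), and the oxidase gene Cybb (1.10 ± 0.670 to 4.04 ± 2.50 CPM), with adjusted p = 0.0114, 0.0141 and 0.0372. Cd14, an endotoxin co-receptor gene, did not pass (0.82, adjusted p = 0.0633 in edgeR).

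The number of calls depended on which libraries entered, more than the fold changes did. Without shfLuc 2 or without shfLuc 3 edgeR called 0 of all genes tested (3309 and 3146 at an unadjusted p under 0.05), and without shfLuc 4, shPpp1r17 2 or shPpp1r17 3 it called 1, 2 and 1 of the pan-myeloid and 2, 4 and 2 of the disease-associated genes. In those 5 fits the pan-myeloid median stayed between 0.71 and 0.88, with 11 or 12 of 17 higher at an unadjusted p under 0.05, and the disease-associated median between 0.57 and 0.75, with 10 or 11 of 18. Without shfLuc 1 the disease-associated median was 1.25. Without the shPpp1r17 libraries 2 and 3 together, 0 genes were called in the pan-myeloid, other homeostatic, disease-associated and inflammatory lists, with 7, 1, 7 and 2 higher at an unadjusted p under 0.05. The medians were then 0.46, 0.30, 0.55 and 0.75, against 0.033 for the 9 homeostatic genes.

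Summed over the 9 genes, the level in each library was 201, 178, 166 and 156 CPM in shfLuc 1 to 4 and 197, 225, 231 and 183 CPM in shPpp1r17 1 to 4, and the groups overlapped. That of the pan-myeloid genes was 539, 391.6, 432 and 333 CPM in shfLuc and 683, 1029, 909 and 504 CPM in shPpp1r17, where shPpp1r17 4 lay below shfLuc 1. The ratio of the 2 sums was 0.373, 0.455, 0.384 and 0.468 in shfLuc 1 to 4, while shPpp1r17 1 to 4 gave 0.289, 0.219, 0.254 and 0.363. Each shPpp1r17 library had a lower ratio than each shfLuc library, with shPpp1r17 4 nearest to them. Ctss, a lysosomal protease gene, and C1qb take much of the pan-myeloid sum. Without them the ratio was 0.872, 0.948, 0.827 and 0.984 in shfLuc and 0.680, 0.517, 0.596 and 0.868 in shPpp1r17, so that the groups overlapped through shPpp1r17 4. Without the 3 complement genes it was 0.488, 0.593, 0.499 and 0.610 in shfLuc, while shPpp1r17 1 to 4 gave 0.385, 0.284, 0.345 and 0.493, again with overlap through library 4. These reduced lists were chosen after the values were seen.

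Set on a common scale, as the median over a list of each gene's log2 CPM less its shfLuc mean, the 9 genes stood at 0.22, -0.01, -0.06 and -0.28 in shfLuc 1 to 4 and at 0.18, 0.37, 0.38 and 0.06 in shPpp1r17 1 to 4. The pan-myeloid genes stood at 0.32, -0.07, 0.01 and -0.30 in shfLuc and at 0.66, 1.29, 1.17 and 0.24 in shPpp1r17. Within shfLuc both lists were highest in library 1 and lowest in library 4 and moved by like amounts. Within shPpp1r17 both were highest in libraries 2 and 3, where the pan-myeloid genes were further from the shfLuc mean than the homeostatic genes. The difference between the medians, homeostatic less pan-myeloid, was -0.10 to 0.07 in shfLuc and -0.92 to -0.19 in shPpp1r17, without overlap. The nearest libraries were shfLuc 1 (-0.10) and shPpp1r17 4 (-0.19). This difference was not taken on the reduced pan-myeloid lists, whose ratios overlapped through shPpp1r17 4. Against the disease-associated list the difference was -0.11 to 0.10 and -0.86 to -0.42, also without overlap. Against the other homeostatic genes it was -0.14 to 0.08 and -0.41 to -0.14, with overlap.

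**Figure D3:**
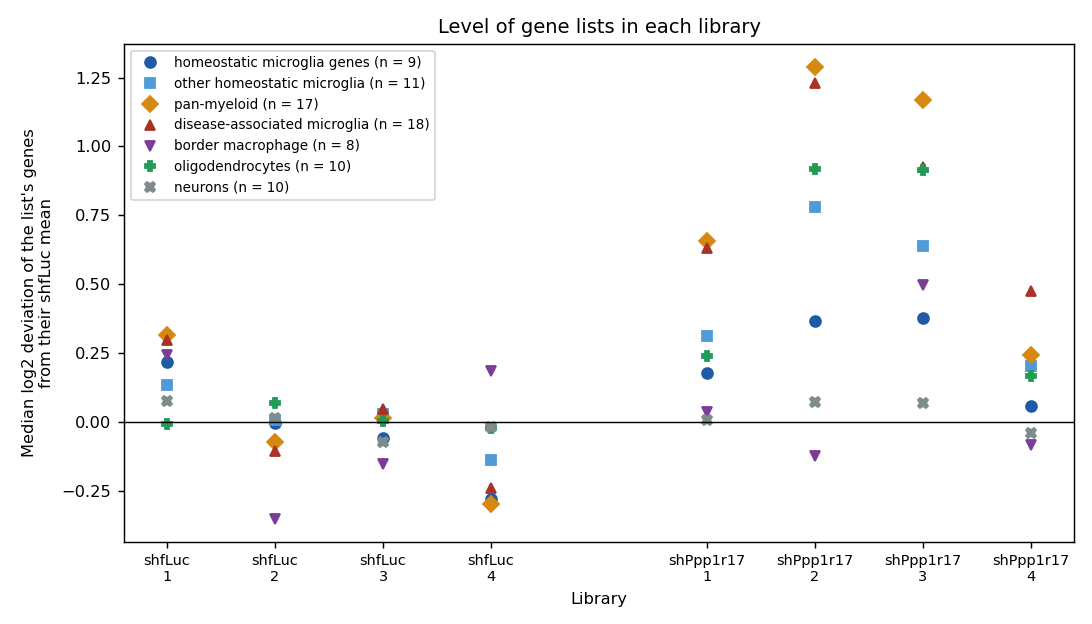
Median over each list of log2 CPM less the shfLuc mean of each gene, per library, for the homeostatic microglia genes and the lists compared with them. The 9 genes reach 0.37 and 0.38 in shPpp1r17 2 and 3, where the pan-myeloid genes reach 1.29 and 1.17.

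Markers of other cells also differed between libraries, and not all in the same ones. The 10 oligodendrocyte genes summed to 1324 to 1377 CPM in shfLuc and to 1358 to 2411 CPM in shPpp1r17, with their list median at 0.92 and 0.91 in shPpp1r17 2 and 3 and at 0.24 and 0.17 in 1 and 4; 3 rose and 0 fell in edgeR (Cldn11 1.02, Mobp 0.79 and Ermn 0.60), and Mbp stood at 0.61 (adjusted p = 0.0510). Lymphocyte genes summed to 13.1 CPM in shfLuc 1 and 1.38 to 3.15 CPM in shfLuc 2 to 4, and to 25.8, 27.3, 20.9 and 4.06 CPM in shPpp1r17 1 to 4, high in the first 3 of them. Of 13 listed 7 were tested and 0 rose or fell in edgeR (5 higher at an unadjusted p under 0.05, 2 with DESeq2 and 1 with limma voom), among them the B cell genes Cd79a (2.52) and Cd79b (1.77), the plasma cell gene Mzb1 (2.99) and the cytotoxic granule gene Nkg7 (1.69), with adjusted p from 0.0678 to 0.0883. Monocyte and neutrophil genes summed to 0.554 to 4.24 CPM in shfLuc and to 9.85, 7.65, 8.66 and 1.18 CPM in shPpp1r17 1 to 4, with shPpp1r17 1 the highest. Of these 9 genes only Ly6c2 was tested (2.35, adjusted p = 0.103 in edgeR), Ly6g had 0 reads in all 8 libraries, and Chil3 and Retnlg had 0 reads in all shfLuc libraries. Border macrophage genes summed to 6.86 to 12.4 CPM in shfLuc and 9.30 to 13.2 CPM in shPpp1r17, and of 8 tested (of 10) 0 rose and 0 fell in edgeR (1 higher and 0 lower at an unadjusted p under 0.05, 0 and 0 with DESeq2, 0 and 0 with limma voom). The mannose receptor gene Mrc1 stood at 2.07 ± 0.345 and 2.41 ± 1.11 CPM, the scavenger receptor gene Cd163 at 0.544 ± 0.168 and 0.353 ± 0.220 CPM, F13a1 at 0.786 ± 0.403 and 0.589 ± 0.370 CPM and Ms4a7 at 1.04 ± 0.290 and 2.68 ± 2.03 CPM (SD, n = 4).

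Endothelial genes summed to 320 to 388 CPM in shfLuc and 328 to 449 CPM in shPpp1r17, and of 10 tested 1 rose, Ly6c1 (0.84, adjusted p = 0.0151 in edgeR), and 0 fell. Of 10 neuronal genes, with a summed level of 5094 to 5231 CPM in shfLuc and 5114 to 5553 CPM in shPpp1r17, 1 rose (Tubb3, 0.38) and 3 fell (Syt1, Nefl and Eno2, -0.37 to -0.43 on the log2 scale). Of 10 astrocyte genes, with 3643 to 4025 CPM in shfLuc and 3483 to 3845 CPM in shPpp1r17, 2 rose (Gfap, 1.82, and S100b, 0.29) and 2 fell (Agt, -0.61, and Slc1a3, -0.46). Of 12 genes of cell division 8 were tested, 0 rose and 1 fell in edgeR (Mcm5, -1.54, adjusted p = 0.0263), and Mki67, Top2a, Ccnb1 and Cdk1 did not pass the expression filter. What part these cells, or the libraries that carry their markers, have in the values of the homeostatic genes was not tested.

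Within groups most of the 9 genes varied together. Over the 36 pairs, Pearson's r of log2 CPM centred on the group means (8 libraries, which share depth and dissection, so that r is a description) ran from -0.42 to 0.95 with a median of 0.57, and it was positive for 30. The highest were Csf1r with P2ry13 (0.952), Cx3cr1 with Tmem119 (0.849) and Cx3cr1 with Csf1r (0.839). Against the mean of the other 8 genes, r was 0.920 for Csf1r, 0.893 for Cx3cr1, 0.808 for P2ry13, 0.782 for Gpr34, 0.744 for Siglech and 0.711 for Tmem119, lower for Sall1 (0.508) and Selplg (0.448), and -0.152 for P2ry12. P2ry12, the most abundant gene of the set per length, thus did not follow the others within groups, nor its neighbour P2ry13 (0.0241). Without the centring its r was 0.668 with Gpr34, 0.44 with Csf1r and 0.419 with P2ry13. It was lower with the others, down to -0.0226 with Siglech. The neighbours Tmem119 and Selplg varied together (0.776). The spread of P2ry12 was small, with a coefficient of variation of 11.4% in shfLuc and 5.11% in shPpp1r17, against counting errors of 3.02% and 2.54%.

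**Figure D4:**
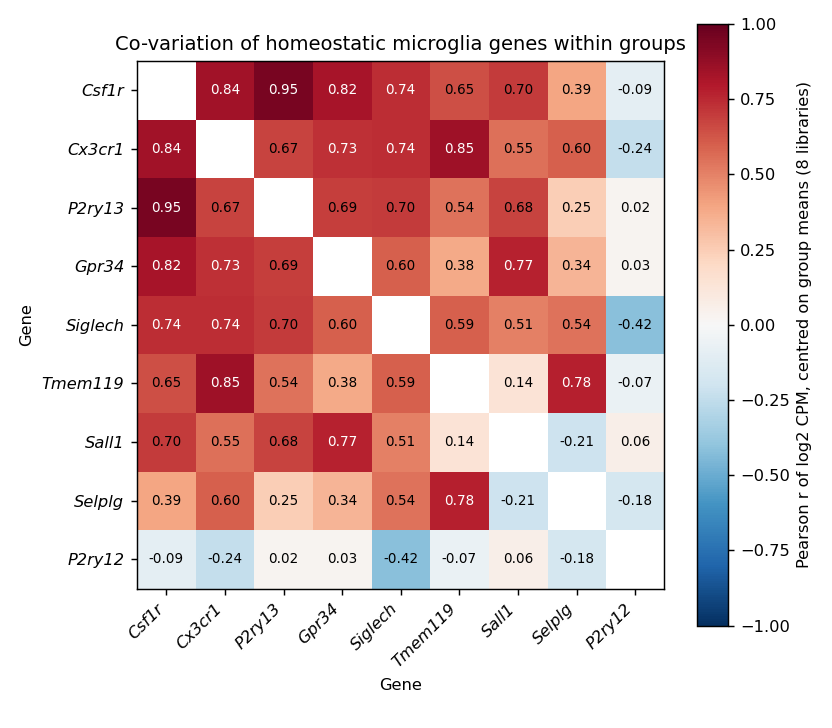
Pearson's r between each pair of the 9 homeostatic microglia genes over 8 libraries, from log2 CPM centred on the group means, as a colour scale from -1 to 1. Csf1r and P2ry13 (0.952) are the most alike, and P2ry12 stands apart from most of the others.

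Outside the lists, the genes whose within-group pattern was most like the mean of the 9 were Dnm2 (r = 0.978), which encodes a dynamin of endocytosis, Meig1 (0.976), Tspo (0.974), the mitochondrial translocator protein gene whose ligands image neuroinflammation, the proton pump subunit gene Atp6v0c (0.970), the noncoding gene Snhg8 (0.969) and the phagosomal metal transporter gene Slc11a1 (0.964). Cnn2, Rhou, Pnkd and the interferon-induced gene Ifit1 followed at 0.961 each. They were picked as the 10 highest over only 8 libraries, so the size of these values carries the selection. Tspo stood at 6.53, 5.16, 4.62 and 4.05 CPM in shfLuc 1 to 4 and at 5.98, 8.12, 7.49 and 5.62 CPM in shPpp1r17 1 to 4, with overlapping groups (log2 fold change 0.42, adjusted p = 0.239 in edgeR). Meig1 (0.98, adjusted p = 0.0113) and Snhg8 (0.55, adjusted p = 0.0352) rose, and the other 8 did not pass.

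Several of the genes overlap others in the GRCm38 annotation, and the sources used here do not say whether counting used strand, so reads of overlapping genes on opposite strands cannot be told apart. P2ry12 and P2ry13 lie inside Med12l, Gpr34 inside Cask, each on the opposite strand, and they share 9, 0 and 0 exon bases with them. Med12l and Cask had log2 fold changes of -0.04 and -0.05 (adjusted p = 0.862 and 0.839 in edgeR), against 0.27, 0.45 and 0.55 for the genes inside them. Csf1r shares 873 exon bases, 15.1% of its own, with Hmgxb3 on the opposite strand (log2 fold change 0.21, adjusted p = 0.470), and Cx3cr1 shares 78 with the antisense gene Gm33858.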

How the data were processed

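Per the labels' protocols, RNA of the 8 DMH samples was extracted with a PicoPure kit and libraries were prepared with Clontech's SMARTer chemistry. The authors' deposited tables give, per the file headers, the TPM and the estimated count of reads of each gene, with its length and effective length. The tools named in the submitters' processing notes are edgeR, limma, DRAGEN and bcl2fastq, with no version and no role; the genome build and aligner settings were not given in the sources used. The deposited expected counts were fractional for up to 10.1% of the genes of a library and were rounded. Symbols came from a table of identifiers that matched 55141 of 55487, and the unmatched took at most 0.0319% of reads in a library.

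Groups and replicate numbers come from the sample titles. Tests across genes used edgeR 4.0.16 in R 4.3.3 (the quasi-likelihood F test) on all 8 libraries with TMM factors, the expression filter (minimum count 10, minimum total 15), the group as the single term and Benjamini-Hochberg adjustment over 17339 genes at 0.05; p-values without a named tool are from it. Each SE is the fitted log2 fold change over the root of its F statistic. The fit was checked on simulated counts drawn independently for each gene, so that check does not cover shifts of many genes together in a library. CPM used TMM library sizes. The 9 genes, the 15 lists beside them and the tests were chosen with earlier results of these data known. Genes named were all 9, Ppp1r17, up to 4 tested genes of each list with the smallest p, and the 10 most like the set among genes with a mean log2 CPM of at least 1; a few more (Apoe, Cx3cl1, Csf1, Spi1, Ctss, markers at 0 and overlapping genes) were chosen after their values were seen. Not every gene this rule selects is reported here. No library repeated another: chi-square per degree of freedom between libraries of a group was 7.46 to 40.2. Single genes of the set had 131 to 1936 reads per library. The labels name no molecular identifiers, so reads need not be independent molecules and counting errors cover counting only. Positions are from GENCODE for GRCm38, which may differ from the authors' build, and start windows from RefSeq.

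Alternatives were DESeq2 1.42.0, limma 3.58.1 (voom, and log2(TPM + 1) with a pseudocount of 1), effective length as an offset, RLE factors or plain totals, stricter and no filtering, a replicate block, and leaving out each library. A fit without shPpp1r17 2 and 3 and an offset for gene length and GC content were added after seeing the data.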

Additional observations from a re-analysis of the deposited data

How the results depend on the processing

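The 1050 genes past the threshold became 1925 with DESeq2, 37 without the shPpp1r17 libraries 2 and 3, and 0 to 1548 with each library left out. The 588 called higher became 994 with DESeq2, 309 on log2(TPM + 1) with limma, 26 without those libraries and 0 to 842 with each left out, and the 462 called lower became 931, 488, 11 and 0 to 706. Among the 9 homeostatic genes the count called higher, 1, became 0 on log2(TPM + 1), with effective length offsets and without the shPpp1r17 libraries 2 and 3, and 0 to 1 with each library left out. The median log2 fold change of the 9, 0.21, was 0.050 on log2(TPM + 1), 0.033 without those libraries and 0.14 to 0.30 with each left out. On log2(TPM + 1) the median over all tested genes was -0.062, against 0.0043 in edgeR. In 9 of 171 refits of single genes the sign turned. Without the shPpp1r17 libraries 2 and 3 the values were -0.021 for Cx3cr1, -0.068 for Tmem119, -0.24 for Sall1 and -0.027 for Siglech. With each library left out Tmem119 ran from -0.073 (without shPpp1r17 3; -0.04 without shfLuc 4) to 0.30, Sall1 from -0.0060 (without shPpp1r17 2) to 0.36, Siglech from -0.019 to 0.25 and Selplg from -0.0070 to 0.26 (both lowest without shfLuc 4). None of these 5 genes passed the test in the fit of all libraries. Gpr34 kept its sign in all 19 refits and lost its call in 8, and P2ry12, P2ry13 and Csf1r kept their sign and side of the threshold. The cause was not tested; fewer libraries leave fewer degrees of freedom.

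Deviations of same-numbered libraries had low correlations (-0.134, 0.0345, -0.0106 and 0.192). The sample titles do not say whether the numbers pair libraries, and so few values cannot settle it. The numbers were used as names, without pairing, in the fit of all libraries. With the replicate number as a block, 424 genes were higher and 302 lower, Gpr34 stayed the 1 gene of the set called (0.54, adjusted p = 0.0484 in edgeR), and the median of the set was 0.16. Sall1, Tmem119 and P2ry13 have the fewest reads of the set, and their wide intervals limit what can be said of them.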
